A study of Mus musculus with 16 samples.

Results

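The effect of the lymphoma mutation Ezh2 Y641F on gene expression in centrocytes was measured by setting 4 mutant centrocyte libraries against 4 control centrocyte libraries, which are 8 of the 16 libraries sequenced. They were assigned to their groups by their labels and not by measured values. Centrocytes are the light zone B cells of the germinal centre, sorted here from the spleen as B220+, FAS+, CD38-, CXCR4- and CD86+ cells. The mice were C57BL/6J, 3 months old and of litter 1 in every library, and had received sheep red blood cells 8 days earlier. Control mice had the genotype Cγ1-cre+/-. Mutant mice had the genotype Ezh2(Y641F)fl/wt;Cγ1-cre+/-, so 1 Ezh2 allele was conditional for the mutation, the other was wild type, and both groups carried the recombinase. Cγ1-cre acts in B cells that transcribe the Cγ1 locus, so other cells of the spleen keep unmutated Ezh2. The gene counts do not tell the mutant allele from the normal one, nor do they give the share of sorted cells that had recombined. The other 8 libraries, control and mutant centroblasts of the dark zone with 4 each, entered the fit and are used below as a comparison.

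EZH2 is the catalytic subunit of Polycomb repressive complex 2 (PRC2), which trimethylates lysine 27 of histone H3, a mark of silenced genes that is found mostly at CG-rich promoters. Changes of this tyrosine raise this trimethylation and are frequent in lymphomas of germinal centre origin. Centrocytes test their antigen receptors on follicular dendritic cells, seek help from T follicular helper cells, and then die, return to the dark zone, or leave as memory or plasma cells. Programmes of cell cycle arrest, exit and differentiation in these cells are known targets of EZH2.

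The 8 centrocyte libraries held 35230563 to 39788264 counted reads, and 15240 of the 49584 genes listed had enough counts to be tested. The first principal component of the centrocyte libraries carried 44.5% of the variance and separated the genotypes. The second carried 21.8% and separated libraries 1 and 2 from libraries 3 and 4 of each genotype, which Y-linked transcripts showed to be male and female. The genes of the sorted proteins did not pass the test between genotypes: Ptprc (−0.07 ± 0.18 on the log2 scale, SE), Fas (0.16 ± 0.15), Cd38 (0.43 ± 0.22), Cxcr4 (−0.30 ± 0.10) and Cd86 (0.15 ± 0.17), with adjusted p values of 0.826, 0.502, 0.185, 0.0526 and 0.597. Without mutant library 4 the adjusted p of Cxcr4 was 0.0316. The germinal centre gene Bcl6 did not pass either (−0.13 ± 0.12). Macrophage markers stood apart: the 20 markers summed to 90.4 to 153 CPM (counts scaled to a fixed library size by TMM, as CPM) in control libraries, to 101 and 60.2 CPM in mutant libraries 1 and 2, and to 396 and 403 CPM in mutant libraries 3 and 4. Of them 2 rose, Cd68 and Lyz2, none fell, and none was at 0 in all 8 libraries. Of 10 dendritic cell markers 1 rose, the cytokine receptor gene Flt3 (53.4 to 62.04 CPM in control and 102 to 153 CPM in mutant libraries), while the other 9 summed to 12.3 to 17.9 CPM in control and 8.80 to 16.6 CPM in mutant libraries. These are bulk samples, so fewer cells of a type and less RNA per cell cannot be told apart.

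In mutant centrocytes 1123 genes were higher (7.37% of those tested) and 1394 lower (9.15%) at an adjusted p under 0.05 in the edgeR quasi-likelihood test. All 4 mutant libraries lay above all 4 control libraries for 11.1% of tested genes and below them for 12.4%. Falls were larger than rises: 579 genes fell and 186 rose at least 2-fold, and the median change was 1.85-fold among called falls and 1.49-fold among called rises. Called falls were also in less abundant transcripts, with a median of 8.18 CPM against 40.4 CPM for called rises and 16.8 CPM for all tested genes. Among the 1394 falls, 796 passed in each of the 8 fits that left 1 library out, as did 502 of the 1123 rises. Leaving out control library 2, 3 or 4 lowered the share of genes called higher to 3.99%, 4.34% and 4.12%, and leaving out mutant library 2 or 4 lowered it to 4.69% and 4.88%. With mutant libraries 3 and 4 both left out, 3.09% of genes were higher and 4.55% lower. Within the male libraries 2.74% were higher and 4.21% lower, and within the female libraries 7.13% and 7.35%.

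Among the 15 largest falls of genes at log2 CPM 2 or more were a Wnt pathway receptor, a BMP signal transducer, a regulator of actin and a nuclear factor. Lgr5, the R-spondin receptor that marks intestinal stem cells, had 6.98, 10.3, 9.84 and 9.16 CPM in control libraries 1 to 4 and 0.810, 1.21, 0.919 and 0.605 CPM in mutant libraries 1 to 4. Every mutant library was far below the lowest control library, and the change was 10.2-fold (−3.35 ± 0.19 on the log2 scale, SE, n = 4 per group, adjusted p = 2.31e-08). Smad1, which carries BMP signals to the nucleus, had 5.99, 7.15, 9.63 and 7.51 CPM in control libraries 1 to 4 and 0.966, 0.778, 0.947 and 1.18 CPM in mutant libraries 1 to 4 (−2.96 ± 0.21, adjusted p = 2.89e-07). Raph1, lamellipodin, which directs actin growth at the cell edge, had 8.40, 13.8, 14.3 and 12.3 CPM in control libraries 1 to 4 and 1.15, 1.21, 1.35 and 1.92 CPM in mutant libraries 1 to 4 (−3.12 ± 0.28, adjusted p = 3.67e-06). In these 3 genes the lowest control library was more than 4 times the highest mutant library. Tox, a chromatin-binding factor of lymphocyte development, was more abundant than these and had 68.4, 58.8, 68.9 and 52.6 CPM in control libraries 1 to 4 and 10.6, 14.9, 11.4 and 15.6 CPM in mutant libraries 1 to 4. Its fall of 4.74-fold (−2.24 ± 0.18, adjusted p = 8.33e-07) left the groups far apart. Lgr5 lies on chromosome 10 from 115450311 to 115587780, Smad1 on chromosome 8 from 79338395 to 79399518, Raph1 on chromosome 1 from 60482292 to 60567104 and Tox on chromosome 4 from 6686353 to 6991557 (mm10).

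Other genes among the 15 largest falls were Cers6, a ceramide synthase (−2.44 ± 0.25), Map2, a microtubule-binding protein (−2.55 ± 0.32), and Gnb4, a G protein beta subunit (−2.27 ± 0.24). Scmh1, a Polycomb group protein of the sex comb on midleg family, fell from 20.4 ± 1.59 to 4.43 ± 1.21 CPM (mean ± SD, n = 4; −2.20 ± 0.21). Cd93, a surface glycoprotein of early B lineage cells (−2.18 ± 0.27), the liprin gene Ppfibp1 (−2.09 ± 0.14), and Fgl2, a fibrinogen-like protein (−2.10 ± 0.39), fell as well. The largest adjusted p of these 7 genes was that of Fgl2 (0.00161), whose mutant libraries ranged from 1.44 to 5.71 CPM.

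**Figure D1:**
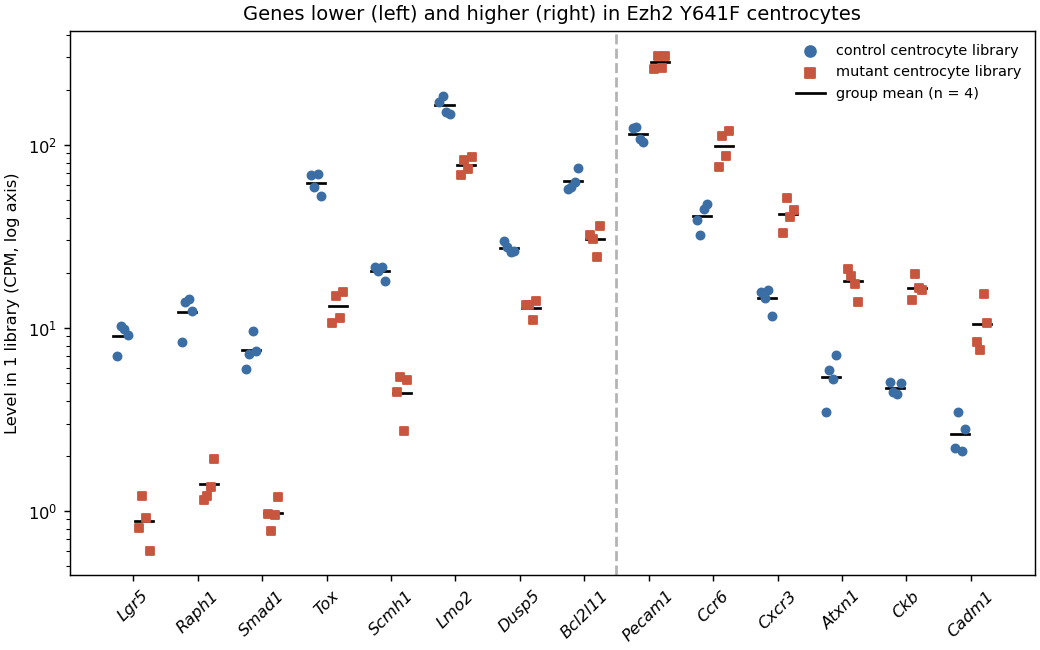
Level of 14 genes in each centrocyte library, in CPM on a log axis, with control libraries as circles, mutant libraries as squares and the group mean as a bar (n = 4). The groups do not overlap for any gene shown, and Lgr5 lies between 6.98 and 10.3 CPM in controls and between 0.605 and 1.21 CPM in mutants.

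Promoters of the genes that changed most are shown because PRC2 is known to act at promoters rich in CG. RefSeq entries (GRCm38.p6) were found for 8 of the 15 largest falls and 6 of the 15 largest rises. The 250 bases before the transcript start follow for 2 falls, Raph1 and Smad1, and 2 rises, Ckb and Cxcr3, each 5′ to 3′ on the strand of the gene, with every CG in capitals.
Raph1 (chr1:60566766-60567015, minus strand): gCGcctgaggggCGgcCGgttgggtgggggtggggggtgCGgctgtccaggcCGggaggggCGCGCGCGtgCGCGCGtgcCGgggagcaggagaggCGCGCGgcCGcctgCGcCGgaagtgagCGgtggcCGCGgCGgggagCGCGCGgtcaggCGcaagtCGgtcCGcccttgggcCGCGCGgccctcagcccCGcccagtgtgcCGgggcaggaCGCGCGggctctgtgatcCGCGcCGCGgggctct
Smad1 (chr8:79399429-79399678, minus strand): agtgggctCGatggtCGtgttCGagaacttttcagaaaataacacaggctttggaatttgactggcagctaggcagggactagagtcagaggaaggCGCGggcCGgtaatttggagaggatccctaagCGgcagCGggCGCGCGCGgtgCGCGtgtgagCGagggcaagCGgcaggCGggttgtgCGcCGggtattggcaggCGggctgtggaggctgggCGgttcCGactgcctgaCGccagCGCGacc
Ckb (chr12:111672339-111672588, minus strand): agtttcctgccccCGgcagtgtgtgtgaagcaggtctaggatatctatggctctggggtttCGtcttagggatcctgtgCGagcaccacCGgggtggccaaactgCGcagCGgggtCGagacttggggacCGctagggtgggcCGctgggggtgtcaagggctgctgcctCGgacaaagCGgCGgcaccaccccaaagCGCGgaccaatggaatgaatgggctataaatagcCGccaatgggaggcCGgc
Cxcr3 (chrX:101734148-101734397, minus strand): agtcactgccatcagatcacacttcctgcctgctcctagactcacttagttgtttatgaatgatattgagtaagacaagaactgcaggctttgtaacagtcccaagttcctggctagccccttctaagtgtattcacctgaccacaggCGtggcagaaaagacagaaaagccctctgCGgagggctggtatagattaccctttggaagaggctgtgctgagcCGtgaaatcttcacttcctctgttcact
These hold 41, 25, 16 and 3 CG pairs. The median over all 32851 RefSeq promoters of that length was 6, and 92.1% had at least 1. Among the other falls with an entry the count was 34 in Map2, 23 in Cers6, 24 in Nbeal1, 35 in Ppfibp1 and 10 in Fgl2, while Scmh1 has a start with 45 and another with 0. Among the other rises it was 1 in Gm7609, 2 in Tnfrsf18 and 6 in Dlg5, and 7 to 19 at the 3 starts of Dhrs3. The genes without an entry were not examined, so these counts describe the ones listed. The median is over all RefSeq promoters, not those of the genes tested here. Whether the listed genes differ in CG from other expressed genes was not tested.

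Several large falls were neighbours on a chromosome. Of 14579 windows of 10 tested genes in a row, 7 held 6 genes called lower and none held more, and 16 held 6 or more called higher. The windows overlapped, each moved on by 1 gene, so 1 stretch can count several times and these are not separate clusters. Windows on chromosome 18 (lower) and on chromosomes 4 and 7 (higher) are not described here. These windows and the stretches named here were chosen after their values were seen. On chromosome 1, between 59913006 and 60915832 (mm10), 6 of 11 tested genes fell and 1, annotated as the pseudogene Rpl18-ps1, rose (0.98 ± 0.28, adjusted p = 0.0254). The falls include Nbeal1 (−2.24 ± 0.37), Abi2, an actin regulator of the WAVE complex (−2.10 ± 0.17), Raph1, Carf (−1.03 ± 0.25) and, past Cd28, the coinhibitory receptor gene Ctla4 (−1.69 ± 0.24). Abi2 had 12.3, 16.8, 17.9 and 16.8 CPM in control libraries 1 to 4 and 3.81, 3.79, 2.84 and 4.40 CPM in mutant libraries 1 to 4, with no overlap. On the X chromosome, between 134686519 and 136271978, 6 of 10 tested genes fell, among them 3 of the armadillo repeat family: Armcx6 (3.27 ± 1.56 to 0.399 ± 0.206 CPM), Armcx3 (1.55 ± 0.549 to 0.329 ± 0.107 CPM) and Armcx4 (−1.54 ± 0.33). On chromosome 9, between 80165031 and 84124240, 6 of 11 fell: the cilium gene Lca5 (−1.397 ± 0.16), Sh3bgrl2 (−1.73 ± 0.18), Irak1bp1 (−1.91 ± 0.40), the nucleosome-binding gene Hmgn3 (−0.98 ± 0.14) and the myosin gene Myo6 (−0.92 ± 0.16) are 5 of them. The other tested genes of these 3 stretches, 4, 4 and 5 of them, were not called.

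The opposite was seen in a stretch of duplicated genes near Sp110 on chromosome 1. Of 10 tested genes between 85083069 and 85342615, 9 rose and 1, the pseudogene Gm7281, was not called (0.14 ± 0.21, adjusted p = 0.696). Most are annotated as pseudogenes, antisense or other noncoding transcripts. Gm2619 had 0.348, 0.906, 2.11 and 0.899 CPM in control libraries 1 to 4 and 7.23, 9.18, 12.8 and 7.21 CPM in mutant libraries 1 to 4, and Gm16025 had 0.267, 0.358, 1.60 and 0.462 CPM in control libraries 1 to 4 and 5.93, 6.50, 9.96 and 7.37 CPM in mutant libraries 1 to 4. Both were at least 3-fold higher in the lowest mutant than in the highest control library. Gm7609 (1.89 ± 0.19) and Gm16026 (1.39 ± 0.15) rose too. Reads from near-identical copies and from overlapping antisense genes cannot be assigned safely, so which copy rose is uncertain.

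Large rises among protein-coding genes included an adhesion molecule, a creatine kinase and a transcriptional corepressor. Cadm1, a cell adhesion molecule, had 2.19, 3.48, 2.11 and 2.79 CPM in control libraries 1 to 4 and 8.41, 7.54, 15.2 and 10.6 CPM in mutant libraries 1 to 4 (3.94-fold, 1.98 ± 0.24, adjusted p = 5.36e-05). Ckb, the brain-type creatine kinase, had 5.03, 4.43, 4.34 and 4.98 CPM in control libraries 1 to 4 and 14.1, 19.6, 16.5 and 16.1 CPM in mutant libraries 1 to 4 (1.82 ± 0.28), and Atxn1, a transcriptional corepressor, had 3.45, 5.87, 5.28 and 7.07 CPM in control libraries 1 to 4 and 21.1, 19.3, 17.4 and 13.9 CPM in mutant libraries 1 to 4 (1.72 ± 0.20). The groups did not overlap for any of these. Tnfrsf18, the costimulatory receptor GITR, rose from 3.13 ± 0.388 to 9.19 ± 0.764 CPM, and Dhrs3, which reduces retinal to retinol, from 12.3 ± 2.20 to 34.5 ± 3.08 CPM. Dlg5, a scaffold protein of cell polarity, rose from 13.7 ± 1.62 to 37.4 ± 9.58 CPM. Pecam1 (CD31), an inhibitory adhesion receptor, had 124, 125, 108 and 104 CPM in control libraries 1 to 4 and 259.6, 306, 262 and 305 CPM in mutant libraries 1 to 4. The groups were far apart, with a change of 2.46-fold (1.30 ± 0.093, adjusted p = 2.89e-07). Gm42418, which the annotation places over a ribosomal RNA repeat on chromosome 17, took 6978, 6200.3, 3713 and 4311 CPM in control libraries and 16662, 11079, 16575 and 7265 CPM in mutant libraries (1.28 ± 0.31, adjusted p = 0.0101).

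With all libraries and no correction for GC content or length, subunits of PRC2, PRC1 and SWI/SNF and histone modifiers tied to lymphoma passed at shares near or below those of all tested genes. Of all tested genes 7.37% were higher and 9.15% lower. Ezh2 had 254, 247, 224 and 256 CPM in control libraries 1 to 4 and 199, 179, 205 and 174 CPM in mutant libraries 1 to 4, with no overlap, and was called lower (−0.37 ± 0.12, adjusted p = 0.0395). The call was lost without control library 1, 2 or 4 or mutant library 2 or 4 (adjusted p = 0.0621 to 0.100). Ezh2 was the only one of 12 tested PRC2 subunits called, and its partners Eed (−0.28 ± 0.14) and Suz12 (−0.50 ± 0.23) were not (adjusted p = 0.169 and 0.141). Of 21 PRC1 subunits 2 rose and 2 fell, and only the rise of Cbx8, which reads the trimethylated histone, passed with each library left out (13.9 ± 1.72 to 23.2 ± 2.37 CPM, 0.73 ± 0.14). None of 20 SWI/SNF subunits was called by edgeR or by DESeq2, and 1 had an unadjusted p under 0.05. Of 22 histone modifiers tied to lymphoma 1 was called, Hdac9, a class IIa histone deacetylase (86.8 ± 5.70 to 52.9 ± 10.3 CPM, −0.72 ± 0.16). When GC content and length entered as an offset, 5 of the 12 PRC2 subunits were called lower and 1 higher. Over all genes 14.2% were then lower and 13.0% higher. With the same offset 5 of the 21 PRC1 subunits were higher and 2 lower, and 1 SWI/SNF subunit was higher. With a replicate block 2 PRC2 subunits were called lower.

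The 2 de novo DNA methyltransferases moved in opposite directions. Dnmt3a rose, with 37.3, 38.1, 48.6 and 40.2 CPM in control libraries 1 to 4 and 63.9, 62.9, 50.5 and 66.1 CPM in mutant libraries 1 to 4 (0.57 ± 0.14, adjusted p = 0.0110). Dnmt3b fell, with 4.17, 5.08, 6.55 and 5.42 CPM in control libraries 1 to 4 and 2.82, 2.09, 1.72 and 3.05 CPM in mutant libraries 1 to 4 (−1.13 ± 0.21, adjusted p = 0.00174). Neither gene's groups overlapped, though control library 3 and mutant library 3 of Dnmt3a were close. In all, 1 of 10 genes of DNA methylation rose and 3 fell, where all tested genes gave 7.37% higher and 9.15% lower. The 3 falls became 1 without control library 3, without mutant library 3, and without mutant libraries 3 and 4 both. The rise was called in each of these fits.

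Of 48 developmental regulators that Polycomb commonly silences, 11 had enough counts to be tested. Of these 2 fell and 1 rose (18.2% and 9.09%, where all tested genes gave 9.15% lower and 7.37% higher). Zeb2, a zinc finger repressor, fell (26.7 ± 3.90 to 9.77 ± 1.65 CPM, −1.45 ± 0.23). Isl1, a LIM homeodomain factor, was near the detection limit in controls, with 0.0802, 0.167, 0 and 0.121 CPM, and rose to 0.914, 1.15, 0.574 and 0.790 CPM in mutant libraries (adjusted p = 0.000791). The other 8 tested were not called.

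Genes of mitosis fell together, the largest block of falls among the lists. Of 73 tested genes of mitotic kinases, cyclins and spindle 43 fell and none rose, or 58.9% lower where all tested genes gave 9.15%, and the median change was −0.47 on the log2 scale (0.0014 over all tested genes). Of the 43, 26 were called in each fit that left 1 library out, and 19 genes were called lower with mutant libraries 3 and 4 left out, 22 within males and 21 within females. Cit, citron kinase of cytokinesis, had 81.4, 82.1, 83.1 and 87.1 CPM in control libraries 1 to 4 and 52.1, 52.2, 40.4 and 50.7 CPM in mutant libraries 1 to 4 (−0.77 ± 0.11, adjusted p = 0.000250). Kif14, a kinesin of the midbody, fell from 46.9 ± 1.39 to 30.9 ± 1.95 CPM and Cdca2, which regulates chromosome-bound phosphatase, from 102 ± 6.67 to 73.2 ± 3.37 CPM. Top2a, the topoisomerase that untangles chromosomes, had 957, 868, 889 and 895 CPM in control libraries 1 to 4 and 600.4, 536, 641.1 and 668 CPM in mutant libraries 1 to 4 (−0.56 ± 0.13). For these 4 genes no mutant library reached a control library. The 73 genes summed to 11301, 10007, 10518 and 10408 CPM in control libraries 1 to 4 and to 7766, 7356, 7271 and 7533 CPM in mutant libraries 1 to 4, without overlap.

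Replication and repair genes fell in part. Of 50 DNA replication genes 10 fell and none rose (median −0.21). Cdc6, which loads the replicative helicase, had 108, 90.7, 101 and 91.2 CPM in control libraries 1 to 4 and 73.6, 73.4, 72.8 and 73.2 CPM in mutant libraries 1 to 4 (−0.42 ± 0.085, adjusted p = 0.00299). Pole, the leading strand polymerase (−0.49 ± 0.10), and Gins3 of the helicase (−0.44 ± 0.094) fell as well. Of 40 genes of double-strand break and crosslink repair 12 fell and none rose (median −0.23). The 12 include Brca1, which had 122, 110.0, 119 and 119 CPM in control libraries 1 to 4 and 82.7, 72.9, 76.0 and 85.3 CPM in mutant libraries 1 to 4 (−0.57 ± 0.10). Rad54l, a motor protein of homologous recombination, is another (−0.56 ± 0.091). Of 23 genes of somatic hypermutation and mismatch repair 3 fell: Polq, an error-prone polymerase (−0.70 ± 0.14), the exonuclease gene Exo1 (−0.41 ± 0.093), and Msh6, which recognizes mismatches (−0.43 ± 0.11, adjusted p = 0.0127, and 0.0647 without mutant libraries 3 and 4). Among 29 G1 cyclins, kinases and inhibitors 6 fell and 1 rose (20.7% and 3.45%). The repressive E2F genes E2f7 (−0.59 ± 0.11) and E2f8 (128 ± 6.85 to 76.9 ± 10.8 CPM, −0.73 ± 0.11) were among the falls, and the pocket protein gene Rbl2 (p130), which holds cells in quiescence, was the rise (68.3 ± 2.46 to 88.1 ± 5.77 CPM, 0.37 ± 0.090). None of 21 replication-dependent histone genes was called by edgeR or DESeq2, with 4 at an unadjusted p under 0.05.

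**Figure D2:**
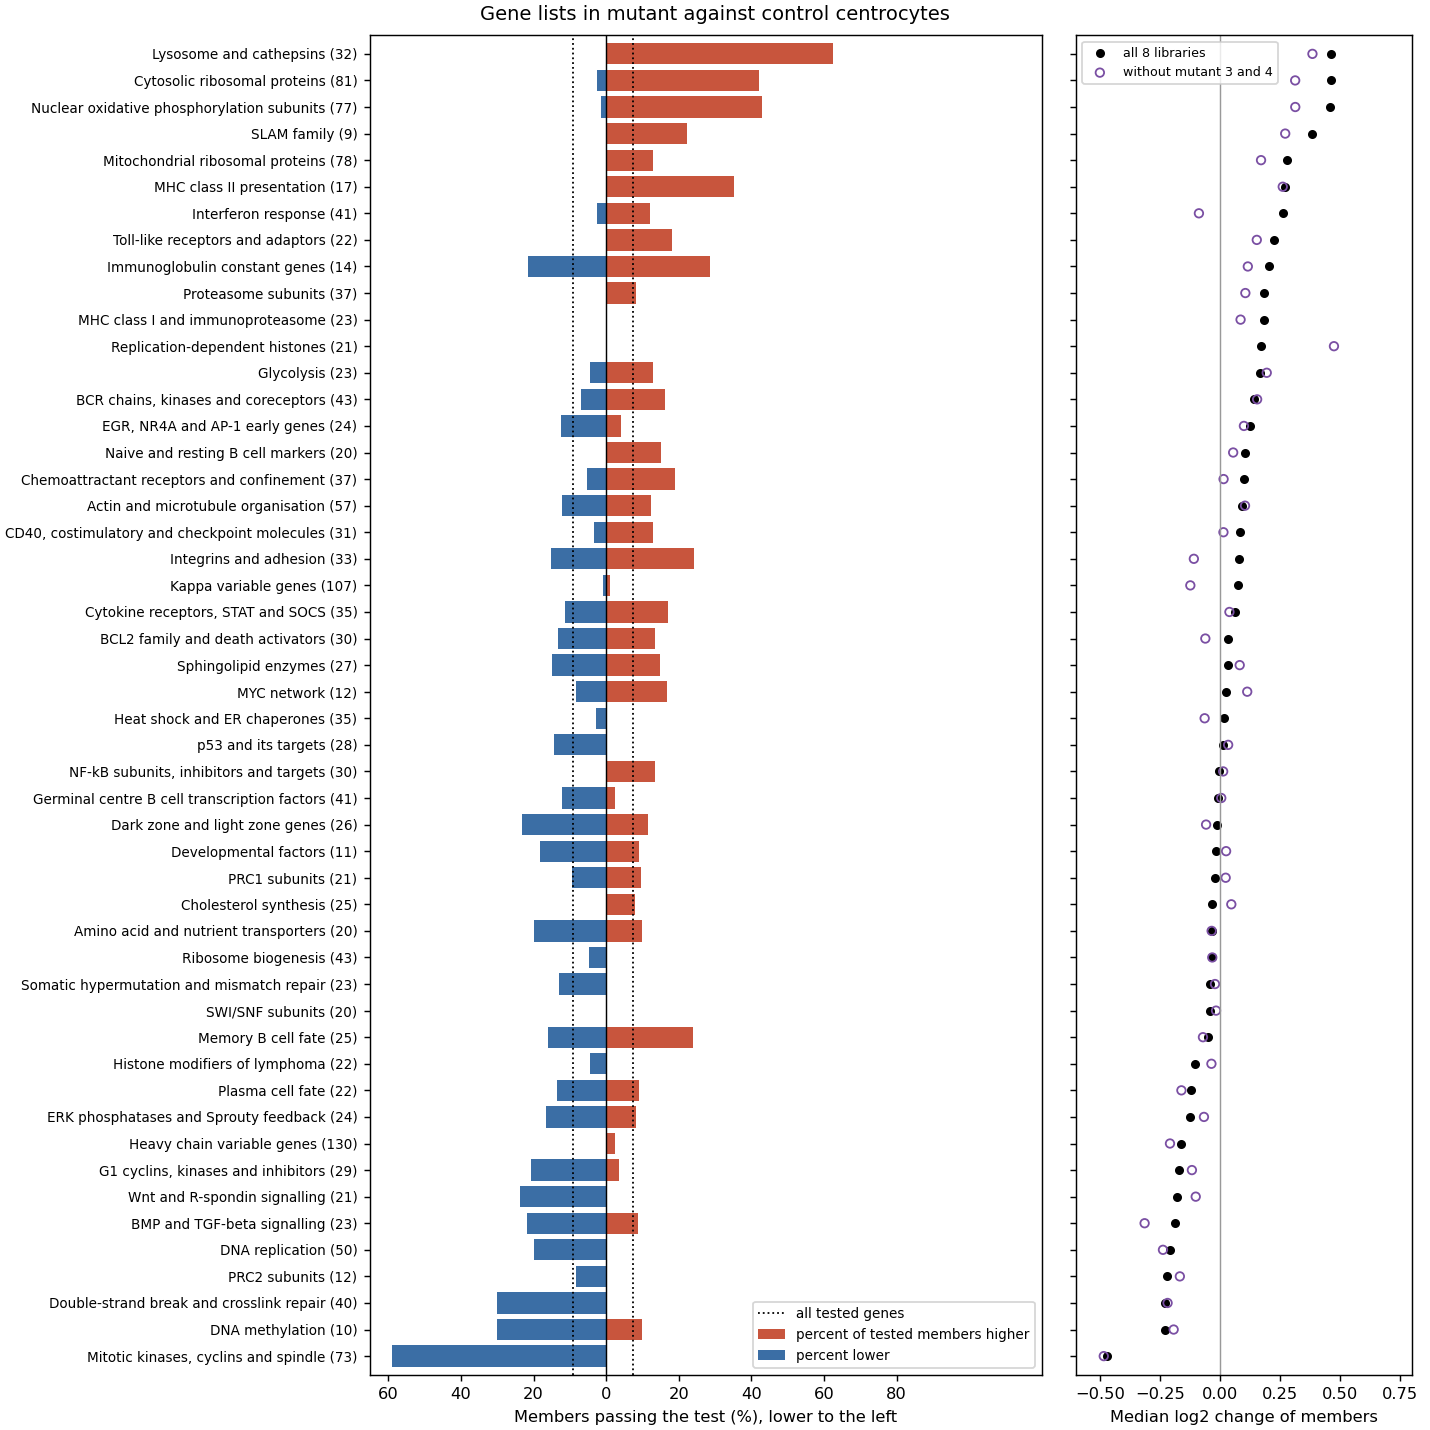
Left, the percentage of tested members of each gene list, lambda variable genes left out, that were lower (blue) or higher (red) in mutant centrocytes, with dotted lines at 9.15% and 7.37% for all tested genes and the number tested in brackets. Right, the median log2 change of the members with all 8 libraries and without mutant libraries 3 and 4; with all 8, mitosis genes have the lowest median, −0.47, and lysosome genes the highest, 0.47. Interferon response genes shift from 0.26 to −0.09 and replication-dependent histones from 0.17 to 0.48.

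A minority of the genes of TGF-beta and Wnt signalling were called, mostly lower. The 2 lists were chosen with earlier results of these data known and hold Smad1, Lgr5 and Znrf3. Their shares are therefore no independent test. Genes of BMP and TGF-beta signalling gave 8.70% higher and 21.7% lower, and those of Wnt and R-spondin signalling 23.8% lower. All tested genes gave 7.37% higher and 9.15% lower. Of 23 tested genes of BMP and TGF-beta signalling 5 fell and 2 rose, and the rises became 1 without mutant library 1 or 3 and 0 without any other library. Tgfbr1, the type I receptor for TGF-beta, had 44.8, 82.2, 65.3 and 65.7 CPM in control libraries 1 to 4 and 24.7, 23.9, 29.1 and 29.0 CPM in mutant libraries 1 to 4 (2.42-fold, −1.27 ± 0.21, adjusted p = 0.000749), and the activin receptor gene Acvr1b fell from 51.4 ± 7.04 to 34.6 ± 5.61 CPM. Of 21 genes of Wnt and R-spondin signalling 5 fell and none rose, and 2 of the falls passed in each fit that left 1 library out. Znrf3, a ubiquitin ligase that removes Wnt receptors and is itself controlled through the R-spondin receptors, had 6.34, 10.2, 13.3 and 8.99 CPM in control libraries 1 to 4 and 3.19, 1.96, 2.04 and 2.40 CPM in mutant libraries 1 to 4 (−2.02 ± 0.26, adjusted p = 8.16e-05). The groups did not overlap for these 3 genes.

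Feedback on ERK was mixed. Dusp5, a nuclear phosphatase of ERK, had 29.7, 27.6, 25.9 and 26.3 CPM in control libraries 1 to 4 and 13.3, 13.3, 10.99 and 13.9 CPM in mutant libraries 1 to 4 (−1.09 ± 0.12, adjusted p = 2.42e-05), a change well outside the spread of either group. Dusp7, a cytoplasmic phosphatase of ERK, rose (20.6 ± 2.69 to 31.7 ± 4.78 CPM, 0.62 ± 0.15). The kinase gene Braf fell (−0.89 ± 0.23, adjusted p = 0.0136), a call that was lost without mutant libraries 3 and 4 (0.103). In all, 2 of 24 genes of this list rose and 4 fell (8.33% and 16.7%, where all tested genes gave 7.37% and 9.15%).

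Some genes of the B cell receptor rose. Of 43 tested chains, kinases and coreceptors 7 rose (16.3%, where all tested genes gave 7.37%) and 3 fell (6.98%, where all gave 9.15%; median 0.14). Cd79b, a signalling chain of the receptor, had 1956, 1506, 1502 and 1537 CPM in control libraries 1 to 4 and 2156, 2495, 2506 and 2375 CPM in mutant libraries 1 to 4 (0.55 ± 0.12, adjusted p = 0.00553), and the coreceptor gene Cd81 had 207, 208, 178 and 186 CPM in control libraries 1 to 4 and 256, 293, 249.7 and 285 CPM in mutant libraries 1 to 4 (0.48 ± 0.10). Ptpn22, a phosphatase that restrains receptor signals, rose from 20.4 ± 2.33 to 41.9 ± 7.31 CPM (1.04 ± 0.15), while the kinase gene Fyn fell (149.7 ± 8.56 to 106 ± 17.5 CPM, −0.50 ± 0.13). Of 30 NF-kB subunits, inhibitors and targets 4 rose and none fell, among them Nfkb1 (0.38 ± 0.096) and Ebi3, a subunit of interleukins 27 and 35, which had 10.96, 9.80, 10.2 and 9.67 CPM in control libraries 1 to 4 and 25.0, 24.4, 21.8 and 21.3 CPM in mutant libraries 1 to 4 (1.19 ± 0.20). Irak2 and Irak4, kinases of Toll-like receptor signalling, rose from 31.7 ± 1.01 to 53.2 ± 5.27 CPM and from 38.2 ± 1.79 to 52.8 ± 2.85 CPM, as 2 of the 4 rises among 22 genes of that pathway, where none fell.

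Both chains of the interleukin 10 receptor rose. Il10ra had 97.3, 94.1, 86.5 and 84.1 CPM in control libraries 1 to 4 and 147, 157, 129 and 144 CPM in mutant libraries 1 to 4 (0.67 ± 0.096), and Il10rb had 31.6, 34.0, 34.9 and 31.6 CPM in control libraries 1 to 4 and 48.6, 48.2, 66.7 and 57.8 CPM in mutant libraries 1 to 4 (0.74 ± 0.11). The chains of the interleukin 6 receptor moved in opposite directions, with Il6ra, the binding chain, higher (18.0 ± 1.91 to 32.0 ± 4.80 CPM, 0.83 ± 0.13) and Il6st, the signalling chain gp130, lower (12.3 ± 2.82 to 6.13 ± 1.37 CPM, −1.01 ± 0.23). The groups did not overlap for any of these 4 genes. Of 35 tested cytokine receptors, STAT and SOCS genes 6 rose and 4 fell (17.1% and 11.4%, where all tested genes gave 7.37% and 9.15%).

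Ccr6, Cxcr3 and Gpr183, receptors that are known to guide B cells outside the germinal centre, rose, while S1pr1 (−0.20 ± 0.23, adjusted p = 0.578) and Ccr7 (0.28 ± 0.35, adjusted p = 0.623), receptors of egress and of T cell zones, were not called. Ccr6, the receptor for CCL20 carried by memory precursors, had 38.7, 32.1, 44.8 and 47.5 CPM in control libraries 1 to 4 and 75.3, 111, 87.2 and 118 CPM in mutant libraries 1 to 4 (2.40-fold, 1.26 ± 0.21, adjusted p = 0.000778). Cxcr3, which follows interferon-induced chemokines, had 15.8, 14.6, 16.2 and 11.7 CPM in control libraries 1 to 4 and 33.0, 50.9, 40.3 and 43.9 CPM in mutant libraries 1 to 4 (2.89-fold, 1.53 ± 0.14, adjusted p = 3.10e-06). Gpr183, the oxysterol receptor EBI2 that draws cells to the follicle edge, had 19.4, 19.9, 22.5 and 27.0 CPM in control libraries 1 to 4 and 31.4, 40.0, 45.3 and 47.8 CPM in mutant libraries 1 to 4 (0.89 ± 0.15). Every mutant library was above every control library for all 3. Gnaq, a G protein alpha subunit, fell instead, with 25.8, 35.5, 27.2 and 31.7 CPM in control libraries 1 to 4 and 14.96, 8.59, 9.19 and 15.3 CPM in mutant libraries 1 to 4 (−1.32 ± 0.21). Of 37 tested chemoattractant receptors and confinement genes 7 rose and 2 fell (18.9% and 5.4%, where all tested genes gave 7.37% and 9.15%).

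Adhesion genes were called in both directions, 8 higher and 5 lower of 33 tested (24.2% and 15.15%, where all tested genes gave 7.37% and 9.15%). Cd2, which binds CD48, had 86.9, 78.7, 90.0 and 77.8 CPM in control libraries 1 to 4 and 144, 169, 220.1 and 175 CPM in mutant libraries 1 to 4 (1.09 ± 0.14, adjusted p = 9.83e-05). It stood beside Cadm1 and Pecam1 among the rises. Itgb3, the beta 3 integrin, had 51.8, 55.6, 81.2 and 67.5 CPM in control libraries 1 to 4 and 30.1, 30.8, 21.3 and 41.0 CPM in mutant libraries 1 to 4 (−1.05 ± 0.19), Alcam, an immunoglobulin superfamily ligand of CD6, had 47.0, 55.3, 46.7 and 49.0 CPM in control libraries 1 to 4 and 27.0, 25.4, 22.4 and 27.7 CPM in mutant libraries 1 to 4 (−0.95 ± 0.13), and the integrin linker gene Vcl fell from 4.39 ± 0.426 to 2.66 ± 0.645 CPM. Of 57 genes of actin and microtubule organisation 7 rose and 7 fell (12.3% each). The Rac exchange factor Vav3 had 2.97, 3.55, 3.36 and 3.04 CPM in control libraries 1 to 4 and 1.28, 1.05, 0.718 and 1.47 CPM in mutant libraries 1 to 4 (−1.51 ± 0.27), while the myosin gene Myo1f rose (23.3 ± 3.90 to 50.3 ± 7.10 CPM, 1.11 ± 0.13).

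Transcription factors of the germinal centre were mostly not called, with 1 higher and 5 lower of 41 (2.44% and 12.2%). All tested genes gave 7.37% and 9.15%. Besides Tox, Myb, a factor of proliferating progenitors, fell (14.7, 15.02, 20.1 and 18.8 CPM in control libraries 1 to 4 and 9.61, 7.87, 6.03 and 7.37 CPM in mutant libraries 1 to 4; −1.15 ± 0.16). Lmo2, a LIM adaptor and marker of germinal centre B cells, had 172, 185, 151 and 147 CPM in control libraries 1 to 4 and 68.5, 82.1, 73.3 and 85.3 CPM in mutant libraries 1 to 4 (−1.08 ± 0.12, adjusted p = 2.85e-05), so the highest mutant library was far below the lowest control. Of 25 memory genes 6 rose and 4 fell, with a median of −0.05. The rises include Ccr6, Cxcr3, Gpr183 and the lymphotoxin gene Ltb (259 ± 14.2 to 452 ± 56.7 CPM, 0.80 ± 0.18), and the falls Zeb2, the intermediate filament gene Vim (183 ± 11.6 to 104 ± 19.2 CPM, −0.81 ± 0.15) and Nt5e (CD73), an ectoenzyme that makes adenosine and marks memory cells (47.2 ± 9.22 to 32.0 ± 4.49 CPM, −0.56 ± 0.13). Of 20 markers of naive and resting B cells 3 rose and none fell, Tmem108 with the smallest p (5.80 ± 1.16 to 12.5 ± 2.73 CPM).

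Plasma cell genes gave 2 rises and 3 falls among 22, and none of these 5 passed in each fit that left a library out. These shares, 9.09% and 13.6%, stood beside 7.37% and 9.15% over all tested genes. Prdm1 (BLIMP1), the factor that commits cells to the plasma cell fate, had 4.95, 10.9, 19.7 and 17.01 CPM in control libraries 1 to 4 and 6.19, 3.52, 4.42 and 6.42 CPM in mutant libraries 1 to 4. Control library 1 lay within the mutant range, and the call (−1.35 ± 0.36, adjusted p = 0.0164) was lost without control library 3 or 4 or mutant library 2 (adjusted p = 0.0695, 0.0561 and 0.0553).

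Checkpoint and contact molecules changed in single genes. Of 31 CD40, costimulatory and checkpoint genes 4 rose and 1 fell (12.9% and 3.23%, where all tested genes gave 7.37% and 9.15%). Of 9 SLAM family genes 2 rose (22.2%), of which 1 was called in each fit that left 1 library out. Pdcd1 (PD-1) was low and rose from 1.15 ± 0.165 to 3.28 ± 0.862 CPM (1.51 ± 0.28), and Ctla4 fell from 4.52 ± 0.382 to 1.399 ± 0.339 CPM. The SLAM gene Ly9 had 244, 207, 205 and 199.8 CPM in control libraries 1 to 4 and 274, 291, 321 and 325 CPM in mutant libraries 1 to 4 (0.50 ± 0.092, adjusted p = 0.00147). Both Pdcd1 and Ctla4 are also T cell genes. Of 15 T cell markers 10 were tested and 1 rose, Thy1 (0.286 to 1.17 CPM in control and 2.43 to 3.37 CPM in mutant libraries). Lck, a kinase gene of that list, had 209 to 309.6 CPM in control and 290 to 326 CPM in mutant libraries, and the other 14 markers together 7.49 to 10.3 CPM in control and 8.67 to 14.1 CPM in mutant libraries. The T cell receptor complex genes Cd3e, Cd3d, Cd3g and Trac were at 1.71 CPM or below in every centrocyte library. The part of T cell transcripts in these values was not tested.

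Lysosomal genes were higher, the list with the largest share of rises. Of 32 tested members 20 rose and none fell (62.5% higher where all tested genes gave 7.37%), with a median of 0.47, and 14 were called in each fit that left 1 library out. The members summed to 4844, 4702, 4674 and 4594 CPM in control libraries 1 to 4 and to 6129.6, 6756, 6925 and 7316 CPM in mutant libraries 1 to 4. Lgmn, an asparaginyl endopeptidase that cuts antigens, had 311, 289, 285 and 254 CPM in control libraries 1 to 4 and 468, 478, 501 and 542 CPM in mutant libraries 1 to 4 (0.80 ± 0.099, adjusted p = 5.57e-05). Hexa, a subunit of the enzyme that degrades gangliosides, had 63.1, 56.6, 53.2 and 58.4 CPM in control libraries 1 to 4 and 83.7, 90.4, 105 and 94.3 CPM in mutant libraries 1 to 4 (0.69 ± 0.11), and Atp6ap1, an accessory subunit of the lysosomal proton pump, had 155, 144, 136 and 146 CPM in control libraries 1 to 4 and 192, 226, 202 and 219 CPM in mutant libraries 1 to 4 (0.53 ± 0.086). Apoe, a lipid carrier, had 380.3, 412, 467 and 401 CPM in control libraries 1 to 4 and 695, 767, 695 and 772 CPM in mutant libraries 1 to 4 (0.82 ± 0.18). For these 4 genes every mutant library was above every control library. The macrophage marker sums of mutant libraries 1 and 2, 101 and 60.2 CPM, lay within and below the control range. The part of macrophage transcripts in these 4 rises was not tested.

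The cathepsins were highest in mutant libraries 3 and 4. Ctsd had 66.6, 54.7, 57.9 and 59.3 CPM in control libraries 1 to 4 and 80.2, 94.2, 129 and 128 CPM in mutant libraries 1 to 4, and Ctsb had 178, 172, 159 and 161 CPM in control libraries 1 to 4 and 222, 221, 315 and 346 CPM in mutant libraries 1 to 4. Mutant libraries 1 and 2 were above every control library here too, but the adjusted p without mutant libraries 3 and 4 was 0.0656 for Ctsd, 0.0874 for Ctsb, 0.0733 for Ctsh and 0.0824 for Ctss, against 0.00210, 0.00294, 0.00871 and 0.00403 with them. Without these libraries 9 of the 32 lysosomal genes were called higher, beside 3.09% of all genes, and the median was 0.39. Within male libraries 6 were called higher and within female libraries 19. The macrophage markers were high in the female mutant libraries, at 396 and 403 CPM, and not in the female controls, at 109 and 122 CPM: Adgre1 (F4/80) had 3.71, 2.01, 13.5 and 16.6 CPM and Hmox1 11.4, 7.22, 53.5 and 50.4 CPM in mutant libraries 1 to 4, against 4.33 to 6.77 and 12.1 to 15.9 CPM in controls. Their part in the lysosomal rise was not tested beyond these values. The lysosomal list shares 1 gene, Cd68, with the 20 macrophage markers.

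Some genes of MHC class II presentation rose. Of 17 members 6 rose and none fell (35.3% higher where all tested genes gave 7.37%, median 0.27). H2-Aa, a class II alpha chain, had 3849.9, 3319, 3388 and 3297 CPM in control libraries 1 to 4 and 4642, 5253, 5943 and 5709 CPM in mutant libraries 1 to 4 (0.64 ± 0.12, adjusted p = 0.00142), without overlap, and 0.52 without mutant libraries 3 and 4 (adjusted p = 0.0284). The number of members called was 6 without control library 1 or mutant library 1, 3 without control library 3 or 4 or mutant library 3 or 4, and 2 without control library 2 or mutant library 2. It was 1 without both mutant libraries 3 and 4. The macrophage marker sum was highest in mutant libraries 3 and 4, as was H2-Aa, and the part of these markers was not tested. None of 23 genes of MHC class I and the immunoproteasome was called by edgeR or DESeq2, with 3 at an unadjusted p under 0.05.

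**Figure D3:**
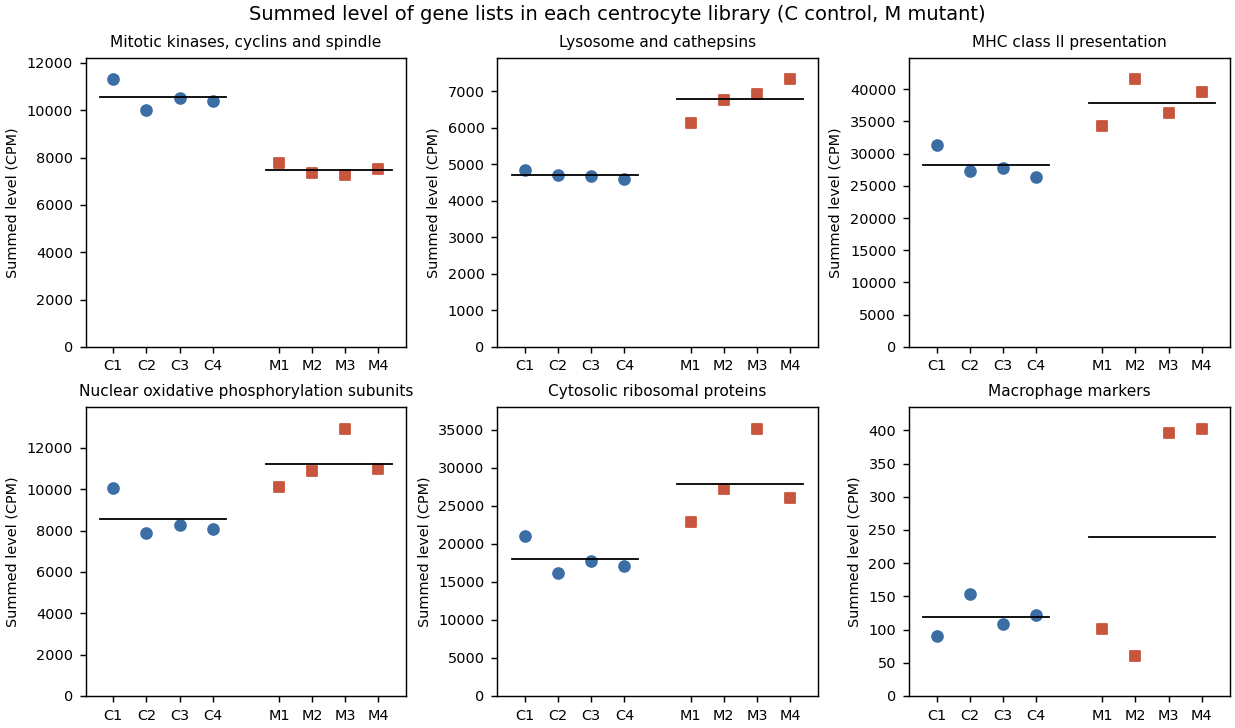
Summed level in CPM of the tested members of 5 gene lists and of 20 macrophage markers in control (C1 to C4) and mutant (M1 to M4) centrocyte libraries, with lines at the group means (n = 4). The first 5 sums do not overlap between groups, while macrophage markers reach 396 and 403 CPM in M3 and M4 only.

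Many genes of oxidative phosphorylation and of ribosomes were called higher with all libraries, and few in every fit that left 1 library out. Of 77 nuclear genes of oxidative phosphorylation 33 rose and 1 fell (median 0.46), and of 81 cytosolic ribosomal protein genes 34 rose and 2 fell (median 0.46). The shares higher were 42.9% and 42.0%, where all tested genes gave 7.37%. Only 4 of the 33 and 2 of the 34 passed in each fit that left 1 library out. Without mutant library 3, 5 and 3 genes were called higher, without control library 2, 8 and 2, without control library 3, 9 and 10, and without control library 4, 7 and 6. Without mutant library 2 the counts were 18 and 22. Within the male libraries 0 and 2 genes were called higher, and within the female libraries 43 and 39. Without mutant libraries 3 and 4 both, 1 gene of oxidative phosphorylation and no ribosomal protein gene was called higher by edgeR, while the medians were 0.31 and 0.31.

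Cox7a2l, which joins respiratory complexes, was 1 of the 4 and had 115, 91.6, 89.4 and 90.6 CPM in control libraries 1 to 4 and 133, 167, 173 and 155 CPM in mutant libraries 1 to 4 (0.70 ± 0.12, adjusted p = 0.000972). Ndufa6 of complex I had 54.3, 42.7, 39.1 and 42.4 CPM in control libraries 1 to 4 and 62.2, 72.3, 96.5 and 67.1 CPM in mutant libraries 1 to 4, and the small subunit gene Rps28 had 57.3, 42.6, 45.4 and 42.0 CPM in control libraries 1 to 4 and 66.1, 78.6, 109 and 72.3 CPM in mutant libraries 1 to 4. In both, mutant library 3 was the highest and control library 1 the highest of the controls. Without mutant libraries 3 and 4 the adjusted p was 0.0695 for Ndufa6, 0.100 for Rps28 and 0.104 for the abundant gene Rpl13a, against 0.00660, 0.0104 and 0.0114 with them. Called rises had a median transcript length of 2242 bases, called falls 3841 and all tested genes 2861.5. When GC content and length entered as an offset, 27 and 32 genes of these lists were higher, where 13.0% of genes were higher and 14.2% lower, and the medians dropped to 0.23 and 0.24. The part of transcript length in these changes was not tested further.

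**Figure D4:**
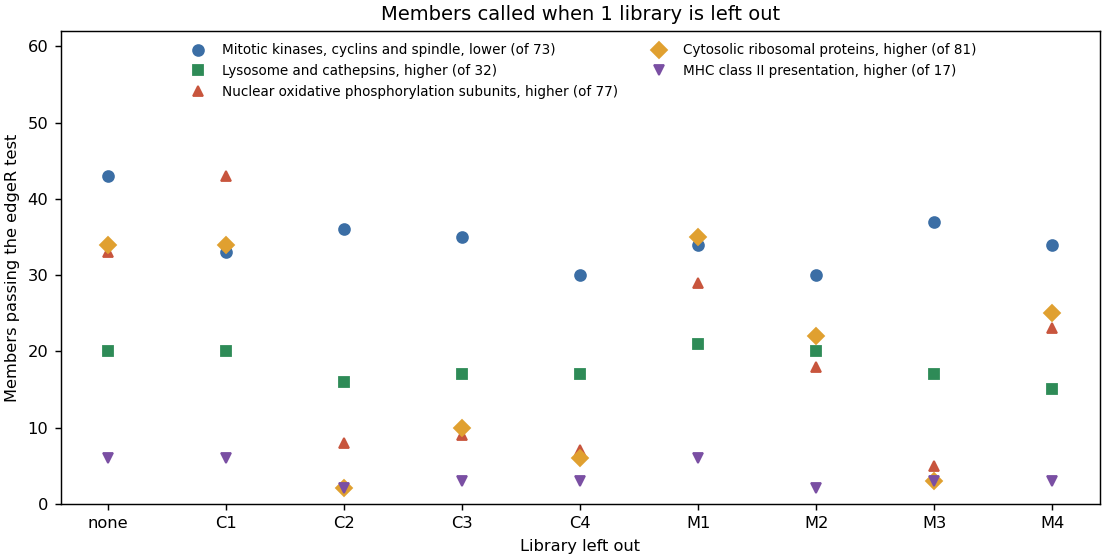
Number of genes of 5 lists that passed the edgeR test with all libraries (none) and with each control (C) or mutant (M) centrocyte library left out. Mitosis genes stay between 30 and 37 and lysosome genes between 15 and 21 of those tested when a library is left out, while oxidative phosphorylation genes range from 5 to 43 and ribosomal protein genes from 2 to 35.

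No ribosome biogenesis factor was called higher with all libraries, and 3 were without control library 1; of 43 tested 2 fell (median −0.03). Glycolysis genes gave 3 rises and 1 fall of 23 (13.0% and 4.35%, where all tested genes gave 7.37% and 9.15%). Aldoc, aldolase C, had 32.5, 24.6, 25.1 and 22.6 CPM in control libraries 1 to 4 and 60.8, 70.6, 49.6 and 66.5 CPM in mutant libraries 1 to 4 (2.36-fold, 1.24 ± 0.13, adjusted p = 1.56e-05), with no overlap. Transporters gave 2 rises and 4 falls of 20: the amino acid transporter genes Slc36a4 (25.6 ± 3.45 to 11.6 ± 2.58 CPM) and Slc38a2 (−0.50 ± 0.10) fell, and Slc43a2, which carries large neutral amino acids, rose (0.50 ± 0.11). Mxd4, a repressor that competes with MYC for MAX, rose (153 ± 29.2 to 239.6 ± 31.5 CPM, 0.65 ± 0.16), as 1 of 2 rises among 12 genes of the MYC network, where 1 fell. Of 41 interferon response genes 5 rose and 1 fell, with a median of 0.26, and −0.09 without mutant libraries 3 and 4. Ifi27l2a had 34.98, 33.2, 31.3 and 33.4 CPM in control libraries 1 to 4 and 68.4, 52.5, 183 and 100.04 CPM in mutant libraries 1 to 4, highest in mutant libraries 3 and 4 (1.60 ± 0.31, and 0.87 with an adjusted p of 0.0569 without them), while Dhx58, an RNA sensor of the RIG-I family, was even across mutant libraries (57.4, 52.1, 56.2 and 57.9 CPM, against 39.6, 36.6, 31.8 and 32.1 CPM in controls). Heat shock and chaperone genes (0 higher, 1 lower of 35) and cholesterol synthesis genes (2 higher, 0 lower of 25) were close to or below the share of all tested genes.

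Genes of cell death moved both ways. Bcl2l11 (BIM), which starts apoptosis by binding BCL2 proteins, had 57.01, 59.2, 62.7 and 75.1 CPM in control libraries 1 to 4 and 32.0, 30.6, 24.5 and 35.9 CPM in mutant libraries 1 to 4 (2.06-fold, −1.05 ± 0.15, adjusted p = 0.000178). Bmf, another such activator, rose, with 69.4, 72.0, 67.3 and 61.0 CPM in control libraries 1 to 4 and 123, 145, 75.4 and 126 CPM in mutant libraries 1 to 4 (0.80 ± 0.15), and mutant library 3 was close to the controls. Bcl2l2 (BCL-W), a survival protein, fell (9.42 ± 0.245 to 4.86 ± 1.01 CPM), as did the survivin gene Birc5 (−0.37 ± 0.10), which also acts in mitosis. The survival genes Bcl2a1b and Bcl2a1d, near-identical copies whose reads are uncertain, rose (0.78 ± 0.19 and 0.90 ± 0.20), with adjusted p values of 0.0766 and 0.0661 without mutant libraries 3 and 4. In all, 4 of 30 genes rose and 4 fell (13.3% each, where all tested genes gave 7.37% and 9.15%). Of 28 genes of p53 and its targets 4 fell (14.3%) and none rose. Sesn1 had 36.6, 46.3, 47.6 and 46.3 CPM in control libraries 1 to 4 and 23.8, 19.6, 24.7 and 24.4 CPM in mutant libraries 1 to 4 (−0.93 ± 0.11, adjusted p = 5.12e-05) and Zmat3 19.5, 22.9, 23.8 and 22.3 CPM in control libraries 1 to 4 and 12.04, 13.9, 11.7 and 15.8 CPM in mutant libraries 1 to 4 (−0.73 ± 0.12), and Mdm2, the ligase that degrades p53, fell by less (−0.34 ± 0.083, adjusted p = 0.00973, and 0.0862 without mutant libraries 3 and 4).

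Immunoglobulin constant genes differed by class, with 4 higher and 3 lower of 14 (28.6% and 21.4%, where all tested genes gave 7.37% and 9.15%). Igha, the IgA heavy chain, had 838, 612, 759 and 340.5 CPM in control libraries 1 to 4 and 80.3, 197, 60.7 and 124 CPM in mutant libraries 1 to 4 (5.51-fold, −2.46 ± 0.38, adjusted p = 0.000371), without overlap. Ighg2c (IgG2c) had 114, 303, 1337 and 1097 CPM in control libraries 1 to 4 and 41.0, 191, 169 and 199 CPM in mutant libraries 1 to 4, so that the 2 female controls stood far above the other libraries and control library 1 lay within the mutant range. Its call (adjusted p = 0.0388) was lost in 6 of the 8 fits that left a library out. Ighe (IgE) was likewise highest in the female controls, with 5.94, 10.5, 50.9 and 25.1 CPM in control libraries 1 to 4 and 4.28, 8.54, 5.54 and 8.27 CPM in mutant libraries 1 to 4 (adjusted p = 0.0144, and 0.0832 without control library 3). The lambda chain gene Iglc2 rose, with 244, 164, 179.7 and 189 CPM in control libraries 1 to 4 and 365, 365, 438 and 371 CPM in mutant libraries 1 to 4 (0.99 ± 0.14), although its reads can be shared with its near-identical neighbours. Vpreb3, a chaperone of light chains, had 108, 93.5, 85.8 and 85.9 CPM in control libraries 1 to 4 and 140.0, 153, 168 and 154 CPM in mutant libraries 1 to 4 (0.72 ± 0.11). Variable genes gave few calls: 3 of 130 heavy chain genes were higher and none lower, and 1 of 107 kappa genes was higher and 1 lower.

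In the remaining lists several counts rested on single libraries. Over all tested genes 7.37% were higher and 9.15% lower. The shares were 11.5% and 23.1% in dark zone and light zone genes and 4.17% and 12.5% in early response genes. They were 14.8% and 14.8% in sphingolipid enzymes, and 12.8% of mitochondrial ribosomal protein genes and 8.11% of proteasome subunits were higher. Of 26 dark zone and light zone genes 3 rose and 6 fell, of 24 early response genes of the EGR, NR4A and AP-1 families 1 rose and 3 fell, and none of these 9 falls passed in each fit that left 1 library out. Of 27 sphingolipid enzymes 4 rose and 4 fell, and none of the rises passed in each such fit. Mitochondrial ribosomal protein genes gave 10 rises of 78, which became 16 without control library 1, 1 without control library 2 or mutant library 3, 3 without control library 3 or 4, 4 without mutant library 2 and 5 without mutant library 4. Proteasome subunits gave 3 rises of 37, 8 without control library 1, and 1 without control library 2, 3 or 4 or mutant library 3 or 4. None of 3 lambda variable genes was called by edgeR or DESeq2, with 1 at an unadjusted p under 0.05. Among the lists described above, the rises of actin and microtubule genes dropped from 7 to 3 without control library 2, 3 or 4 or mutant library 2 or 4. The 5 falls of Wnt genes became 2 without control library 3 or mutant library 3, and 3 without control library 2 or 4 or mutant library 1 or 2. The 5 interferon rises became 2 without control library 3 or mutant library 3 or 4, and 3 without control library 1 or 4. The 4 falls of cytokine receptor genes became 1 without control library 3, and 2 without control library 4 or mutant library 2, 3 or 4. The 5 falls of adhesion genes became 3 without control library 3 or 4 or mutant library 1 or 2, the 4 rises of NF-kB genes 2 without control library 2 or mutant library 2, and the 4 of Toll-like receptor genes 2 without control library 2 or 3. Counts of 3 that became 1 were the falls of DNA methylation genes (control or mutant library 3), of B cell receptor genes (mutant library 3) and of immunoglobulin constant genes (control library 3), and the rises of naive cell markers (mutant library 4), of glycolysis genes and of heavy chain variable genes (control library 2, 3 or 4 or mutant library 4 for both, and mutant library 2 for glycolysis). Counts of 2 that dropped to 1 or 0 were the rises of ERK feedback genes in 6 of the 8 fits that left 1 library out, of MYC network genes in 7 and of transporters in 7, and the falls of chemoattractant receptor genes in 5, of ribosome biogenesis factors in 4 and of cytosolic ribosomal proteins in 5. The 2 rises of cholesterol synthesis genes became 4 without control library 1, 0 without control library 2 and 1 without control library 4 or mutant library 4.

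The genotype effect in centrocytes was set beside that in centroblasts by testing the difference of the 2 effects. By edgeR no gene passed (0.00% of 15240, smallest adjusted p = 0.999), with 429 genes at an unadjusted p under 0.05. DESeq2 called 1 gene (0.00657%), Vav3. It fell in centrocytes (−1.51 ± 0.27, adjusted p = 0.00110) and had 0.38 ± 0.27 in centroblasts (adjusted p = 0.448), a difference of −1.90 ± 0.38 that did not pass in edgeR (adjusted p = 0.999). Genes that led the falls in centrocytes fell in centroblasts too: Smad1 −2.67 ± 0.21, Tox −1.99 ± 0.18, Cers6 −2.37 ± 0.25 and Ppfibp1 −1.56 ± 0.14. Leading rises were also higher there: Cxcr3 1.44 ± 0.14, Pecam1 1.09 ± 0.093, Tnfrsf18 2.04 ± 0.22 and Atxn1 2.41 ± 0.22. Lgr5 had −2.30 ± 0.17 in centroblasts, and Igha −1.33 ± 0.37. Several genes called in centrocytes had smaller values in centroblasts that did not pass there: Cit −0.24 ± 0.11 (adjusted p = 0.215), Cox7a2l 0.13 ± 0.12 (0.597), H2-Aa 0.37 ± 0.12 (0.0543) and Ctla4 −0.43 ± 0.25 (0.322). The difference did not pass for any of them, so these effects are not shown to differ between the zones. Of the 1123 genes higher in mutant centrocytes 441 were also called higher in mutant centroblasts, and 1108 were higher there by direction alone. Of the 1394 lower 771 were called lower there, and 1363 were lower by direction. The share of all tested genes called in centroblasts is not given here, so these counts have no background to be set against. Libraries of the 2 zones may come from the same mice, which the test of the difference did not take into account.

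**Figure D5:**
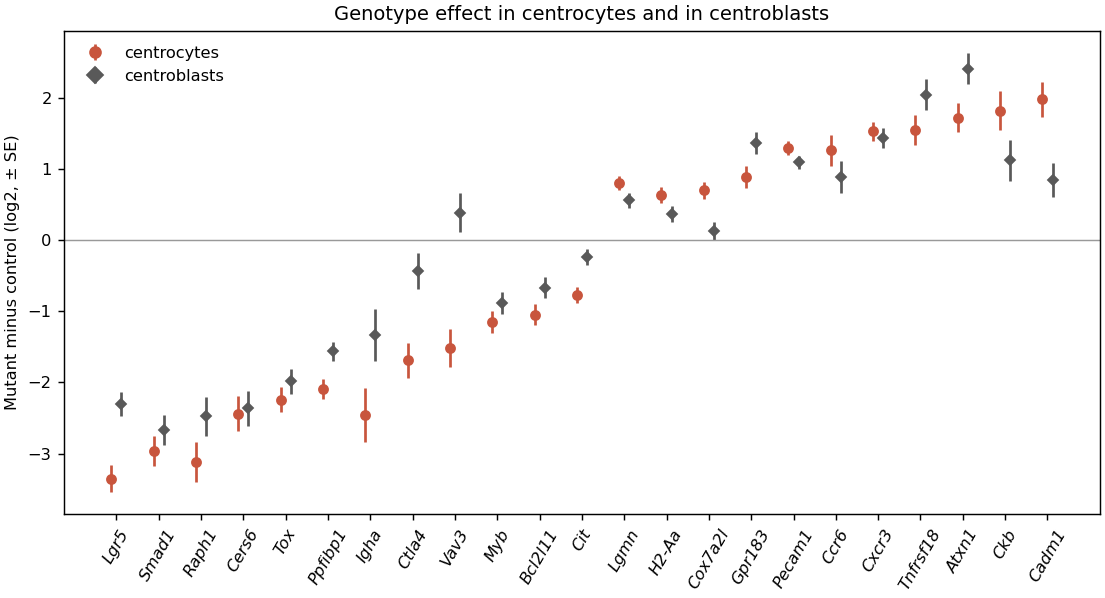
Genotype effect (mutant minus control, log2, ± SE of the fit) for 23 genes in centrocytes (circles, 4 libraries per group) and in centroblasts (diamonds, 4 per group). Vav3 lies at −1.51 ± 0.27 in centrocytes and 0.38 ± 0.27 in centroblasts, and the difference of effects did not pass the edgeR test for any gene.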

How the data were processed

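RNA of sorted cells was sequenced from TruSeq RNA libraries, per the labels. The table the authors deposited gives raw counts per gene, by symbol and without normalization. The submitters' processing notes list Trim Galore, cutadapt, STAR 2.5.3a, featureCounts 1.4.5-p1 of Subread, and mm10; strand, annotation and counting settings are not given in the sources used here. Centrocyte libraries held 35230563 to 39788264 reads in genes; the counts are of reads, not molecules, so the spread between libraries and not the count sets the error. Naive B cells named by the design are not analysed here.

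Tests used edgeR 4.0.16 in R 4.3.3 with limma 3.58.1: filterByExpr, TMM factors, and the quasi-likelihood test on 4 group means over all 16 libraries (12 residual degrees of freedom). DESeq2 1.42.0 was an alternative. P values are 2-sided and adjusted by Benjamini-Hochberg over all 15240 tested genes, with a threshold of 0.05. Errors are the SE of the fit or the SD of 4 libraries, which the design calls biological replicates. Coordinates and transcript length came from GENCODE M21 by symbol for 14774 genes (96.9%). Sex was read from Y-linked transcripts above 5 CPM. The procedure was tested on simulated data.

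The 51 gene lists and the comparison itself were chosen with earlier results of these data known. The share called in a list, set beside that of all tested genes, is therefore a description and no independent test. Genes were named by a rule: the 15 largest rises and falls among called genes of log2 CPM 2 or more whose groups did not overlap, the 5 most abundant called genes per direction, from each list at most 3 called members a direction and 1 that was not called, and a fixed set that includes Ezh2 and the sorted markers. The rule gives 256 genes. The text gives fitted values for 121 of them, picked after their values were seen and mostly for calls that held with each library left out, and 18 outside it. A few genes that the rule names are not reported here. Those outside it include macrophage markers, Eed, Suz12, Apoe, 3 cathepsins and genes of the neighbouring stretches; S1pr1, Ccr7, Gm7281, Rpl18-ps1 and the marker genes Flt3, Thy1 and Lck were also chosen after their values were seen. Other settings tried were DESeq2, RLE factors, all genes with a count, only genes of mean CPM 1 or more, centrocytes alone, a replicate block, sex as a covariate, immunoglobulin genes removed, a spline offset (4 degrees of freedom) for GC content and length, mutant centrocyte libraries 3 and 4 removed, and each library removed; the split by sex was added after the data were seen. Same-numbered control and mutant libraries are different mice.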

Additional observations from a re-analysis of the deposited data

Results flagged for a closer look

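The difference between the genotype effects in female and male libraries was tested in a fit with a mean per group and sex, and 7 genes passed. The named ones are macrophage markers: Adgre1 (2.55 on the log2 scale, female minus male), Hmox1 (2.36) and Cd5l (2.26). Mutant libraries 3 and 4, both female, hold the high values. With 2 libraries per sex and genotype, sex and the makeup of these 2 samples cannot be told apart.

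Single libraries stood apart from the other 3 of their group by Dixon's criterion in 14 of 278 groups examined (5.04%). The criterion flags about 1 in 20 groups by chance. The genes were picked mostly for calls that held with each library left out, so the 2 rates cannot be compared as a test. Control library 1 accounted for 6 of the 14 flagged groups. It was highest for Cd79b (1956 CPM), Ly9 (244 CPM), H2-Aa (3849.9 CPM) and Cox7a2l (115 CPM), and lowest for Sesn1 (36.6 CPM) and Slc38a2 (179.8 CPM). Control library 3 was highest for Gm16025 (1.60 CPM) and Tmem108 (7.54 CPM). Mutant library 3 was lowest for Myo6 (3.24 CPM) and Cit (40.4 CPM) and highest for Bcl2a1b (96.3 CPM) and Iglc2 (438 CPM). Mutant library 2 was lowest for Exo1 (34.9 CPM), and mutant library 4 was highest for Fyn (132 CPM).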

How the results depend on the processing

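When GC content and length entered as an offset, 1920 genes were higher (13.0% of those tested) and 2099 lower (14.2%). Without mutant libraries 3 and 4 the counts were 495 (3.09%) and 729 (4.55%), and within male libraries 2.74% were higher and 4.21% lower. With no filter on low counts 998 (3.03%) and 1478 (4.49%) of 32901 genes were called, a lower share because more genes were tested. Leaving out each library in turn gave 3.99% to 7.86% higher and 6.25% to 9.30% lower. A replicate block gave 845 genes higher (5.83%) and 1222 lower (8.43%); same-numbered control and mutant libraries correlated at 0.135, −0.0292, −0.0779 and 0.416, and not every library correlated best with its own number, so the numbers were not taken as pairs. The difference between zones gave 0 genes under every edgeR setting, the block and each library left out included, and 1 with DESeq2. The block was the replicate number shared by control and mutant libraries, and no setting paired the zones by mouse within a genotype. Same-numbered centroblast and centrocyte libraries 1 to 4 correlated at 0.0418, 0.69, 0.742 and 0.247 in controls. In mutants the values were 0.735, 0.318, 0.437 and 0.549. Over all called genes, 456 of the 1123 rises and 657 of the 1394 falls kept their call without mutant libraries 3 and 4. Of 139 genes whose values are given by library or group, 138 kept direction and call with DESeq2, 139 with RLE factors and with sex as a covariate, 133 with the block, 117 without mutant libraries 3 and 4 and 93 within males. These 139 were picked mostly for calls that held with each library left out, so their counts do not stand for all called genes. Directions that turned were all of uncalled genes: Ptprc with the offset (0.12), with offset and replicate block (0.13) and in females (0.053); in males Fas (−0.078), Cd38 (−0.020), Cd86 (−0.21), Adgre1 (−0.96), Hmox1 (−0.59) and Cd5l (−0.87); and without mutant libraries 3 and 4 Cd86 (−0.057), Bcl6 (0.020), Adgre1 (−0.87), Hmox1 (−0.64) and Cd5l (−0.72). Fewer libraries are tested in the smaller fits; otherwise the cause was not tested.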
